A study of Homo sapiens with 24 samples.

Results

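The genes described here are the 38 human genes of the core translation machinery beyond eIF2, namely the subunits of eIF3, the eIF4 proteins and their inhibitors, the poly(A)-binding proteins, and the elongation and termination factors. They were taken by gene symbol from a list of names; no measured value enters that rule, although the list was drawn up with earlier results of these data known. Of these 38 genes, 37 had an entry in the count table of 37411 genes and 36 were among the 17409 genes abundant enough to be tested. EEF1D held 31 counts over all libraries and was not tested, and EEF1G was not analysed here.

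The RNA came from PC9, an established human non-small cell lung cancer line grown in RPMI with serum. Cells were rinsed and moved to medium without asparagine, an amino acid that most cells can make themselves with the enzyme ASNS, or to the same medium with asparagine. Either medium carried 200 nM ISRIB, a small molecule activator of eIF2B that dampens signalling through phosphorylated eIF2, or 0.004% DMSO, the vehicle. The 8 groups were asparagine-free ISRIB, asparagine-free vehicle, asparagine-replete ISRIB and asparagine-replete vehicle, each set up 24 h or 6 h before a common endpoint, with 3 biological replicates per group according to the series' design text. All groups share the parental line, the rinse and the change of medium, so none was left undisturbed.

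Translation of most messenger RNAs starts at the 5′ cap. The complex eIF4F, made of the cap-binding protein eIF4E, the scaffold eIF4G and the helicase eIF4A, prepares the message, and eIF3 bridges it to the small ribosomal subunit. Elongation factors then deliver transfer RNAs and move the ribosome, and release factors end the chain at a stop codon. Several proteins act as brakes on these steps. The 4E-binding proteins occupy eIF4E, PDCD4 occupies eIF4A, and eEF2 kinase inactivates eEF2. mTORC1, the kinase that senses amino acids, controls the brakes by phosphorylation, and ATF4, the transcription factor of the integrated stress response, is known to raise transcription of EIF4EBP1.

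Many messages of the translation machinery start with a C followed by a run of pyrimidines, the 5′ terminal oligopyrimidine tract that LARP1 and mTORC1 act on. The first 24 bases of the members that carry such a start are shown because this shared feature was not used to choose them. Of the 38 genes, 29 had a promoter entry in RefSeq (GRCh38.p14), and 9 of these 29 (31%) began with C and at least 4 further pyrimidines at an annotated start, against 5.14% of the 27305 genes in the table. In the lines that follow, the initial pyrimidine run is in capitals, the strand is that of the gene, and each sequence runs 5′ to 3′.
EEF1A1: CTTTTTCgcaacgggtttgccgcc
EEF1B2: CCTTTTTCCTCTCTTCagcgtggg
EEF2: CTCTTCCgccgtcgtcgccgccat
EIF3D: CTCTTTTCCTggtttctcaagagt
EIF3F: CTTCTTTCTCgacaagatggccac
EIF3K: CTCTTCCTgttcccgtccttgagg
EIF3M: CTTTTCCggtcggcgtggtcttgc
EIF4A2: CTTTTCagtcgggcgctgagtggt
EIF4B: CTTTTgcgttctctttccctctcc
The runs were 5 bases long in EIF4B, 6 in EIF4A2, 7 in EEF1A1, EEF2 and EIF3M, 8 in EIF3K, 10 in EIF3D and EIF3F, and 16 in EEF1B2. These starts lie at chr6:73521009-73521032 on the minus strand for EEF1A1, at chr2:206159895-206159918 on the plus strand for EEF1B2, at chr19:3985440-3985463 on the minus strand for EEF2 and at chr22:36529143-36529166 on the minus strand for EIF3D. Those of EIF3F, EIF3K and EIF3M lie on the plus strand at chr11:7987337-7987360, chr19:38619188-38619211 and chr11:32583831-32583854. Those of EIF4A2 and EIF4B lie on the plus strand at chr3:186783577-186783600 and chr12:53006456-53006479. The motif TGATGNAA, a form of the C/EBP-ATF element that ATF4 is known to bind, was searched on both strands of the 300 bases from 250 before to 50 after each start. It was found in 0 of the 29 members, including PDCD4, and in 4.46% of all genes in the table; EIF3A, EIF3E, EIF3G, EIF3H, EIF3L, EEF1D, PABPC1, PABPC4 and EIF4EBP1 have no entry there.

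The 24 libraries held 16737384 to 27495861 gene-assigned counts, and 22911 to 25642 genes had at least 1 count. The 37 genes took 1.38% to 1.52% of all counts. Levels are given in CPM, counts scaled to a common library size, with TMM factors for all values except those of the cell type markers. All 7 epithelial markers examined were above 1 CPM in every library, with a summed level of 9059 to 12656 CPM. The summed level of 4 leukocyte markers was 0.643 to 2.53 CPM, that of 3 endothelial markers 4.24 to 56.0 CPM and that of 3 fibroblast markers 3.59 to 14.2 CPM, and none was at 0 in every library. Above 1 CPM in every library were 0 of the leukocyte, 1 of the endothelial and 1 of the fibroblast markers. The stress response itself moved with the labels. ASNS changed by 2.52 on the log2 scale after 6 h of withdrawal with vehicle, and by -2.64 with ISRIB against vehicle in asparagine-free medium at 6 h. Libraries of 1 group also differed in how their counts followed transcript GC content. The slope ran from -0.37 to 0.21 log2 units per 10 GC points and was most negative in replicate 3 of asparagine-replete ISRIB at 24 h (-0.37), replicate 3 of asparagine-free ISRIB at 6 h (-0.36) and replicate 1 of asparagine-replete ISRIB at 6 h (-0.19). Its part in the results was not tested beyond the corrected values given with them.

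Several of these genes have near-identical copies that can take their reads. Processed copies of translation factor genes are common in the genome, and 20 of the 37 genes had named copies with counts of their own. EIF4A1, the main eIF4A helicase, held 2206 counts over all libraries, while its 11 named copies held 300861, of which EIF4A1P10 alone had 209128. The gene itself thus took 0.728% of the sum. EEF1D, an exchange factor subunit for eEF1A, held 31 counts against 68609 on 6 copies. EIF4E held 32.2% of the sum with its copies, EEF1B2 47.8%, EIF3F 50.02%, EEF1A1 58.5%, EIF3L 62.8%, PABPC1 70.8% and EIF4B 71.5%. PDCD4, EEF2K, EIF4A3, EIF6, EEF2, EIF4G1, EIF4G2 and EIF3A, EIF3B, EIF3D, EIF3G and EIF3H had no named copy in the table. How reads matching several places were assigned is not given in the sources used here, so levels of the genes with copies are uncertain. EIF4A1 also shares 48.6% of its exon bases with other genes on the same strand, EIF3L 41.1% and EIF6 17.4%. Over both strands the share was 29.5% for PDCD4 (1.45% on the same strand) and 24.2% for EIF4E2 (0% on the same strand). BBIP1, opposite PDCD4, shares 1277 bases with it and held 2841 counts, against 8950 on PDCD4. Strandedness is not given in the sources used here, and the part of overlap on either strand was not tested.

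**Figure D1:**
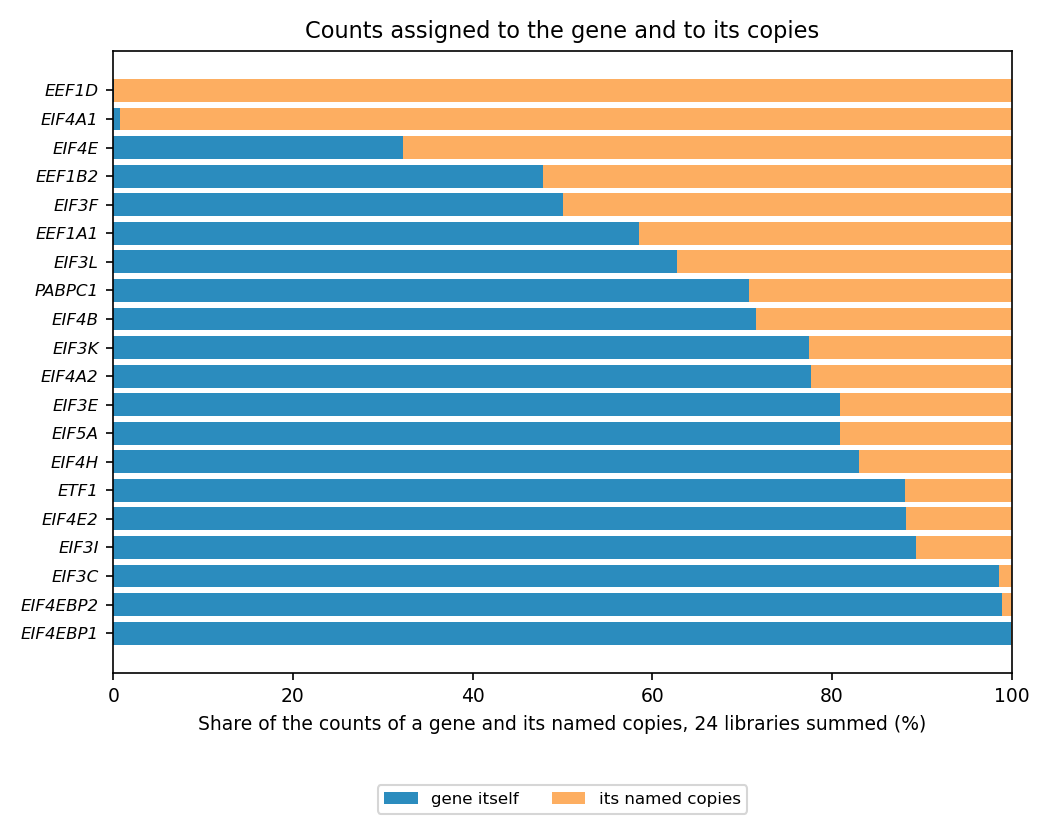
Share of the summed counts of a gene and its named copies that was assigned to the gene itself (blue) and to the copies (orange), in percent over the 24 libraries, for the 20 genes with named copies and a row of their own. EIF4A1 has 0.728% and EIF4E 32.2% of the sum on the gene itself, while EIF4EBP1 has nearly all of it.

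Per kilobase of exon, PABPC1 and EEF2 were the most abundant, each with a mean level of 469 CPM per kb over the 24 libraries, followed by EIF5A (227), EIF3I and EIF4G2 (163 each) and EEF1A1 (158). EIF3C (1.51 CPM per kb), EIF4E (1.35) and EIF4A1 (0.844) were the lowest of the tested genes, the last 2 with most of their reads on copies. EIF3C has 1 named copy, EIF3CL, with 76 counts over all libraries against 5121 on EIF3C. Whether reads that match both were counted is not given, so the level of EIF3C is uncertain as well. Of the 36 tested genes, PDCD4 and EIF4EBP1, both brakes, varied most. PDCD4 had a coefficient of variation of 36.6% over the 24 libraries and EIF4EBP1 31.0%, against 24.8% for EIF6, 17.2% for EEF2K and 8.30% for EIF4EBP2, and the highest group mean was 2.72 times the lowest for PDCD4, 2.23 times for EIF4EBP1 and 2.04 times for EIF6. For 22 of the 36 tested genes it was below 1.4 times, among them EEF1A1 (1.12) and PABPC1 (1.15).

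After 6 h without asparagine, 2 of the 36 genes rose with vehicle, PDCD4 and EIF4EBP1, which both act as brakes on initiation, and 0 fell. Of all 17409 tested genes 4.57% passed an adjusted p of 0.05 in that comparison, 3.31% higher and 1.26% lower. PDCD4, at chr10:110871795-110900006 on the plus strand, blocks the helicase eIF4A. It had 33.9, 28.9 and 34.6 CPM in asparagine-free vehicle cells, against 12.9, 13.5 and 13.4 CPM in asparagine-replete vehicle cells. Every asparagine-free library was thus above every replete one, with means of 32.5 ± 3.09 and 13.3 ± 0.307 CPM (SD, n = 3 each). The log2 change was 1.29 (SE 0.15), a 2.45-fold rise, with an adjusted p of 5.95e-06 in the quasi-likelihood test of edgeR. EIF4EBP1, which sequesters eIF4E, had 63.4, 60.8 and 56.6 CPM in asparagine-free vehicle cells, against 37.1, 39.6 and 38.0 CPM in asparagine-replete vehicle cells. These groups do not overlap either, which held for 12 of the 36 genes and 28.0% of all tested genes here. The log2 change was 0.66 (SE 0.17, adjusted p 0.0261). That call was lost in each of the 6 fits without 1 library (log2 0.62 to 0.70, highest adjusted p 0.108 without replicate 1 of the replete cells), while PDCD4 passed in all 6. Neither of the other brakes passed, with EIF4EBP2 at 0.05 (adjusted p 0.817). EEF2K, the brake on elongation, had 29.9, 27.0 and 30.2 CPM in asparagine-free vehicle cells, against 37.1, 33.9 and 34.7 CPM in asparagine-replete vehicle cells, the lower group without overlap. Its log2 change of -0.28 (SE 0.09) did not pass in edgeR (adjusted p 0.0885), but it did in DESeq2 (-0.29, adjusted p 0.0296) and with the GC trend removed (-0.27, adjusted p 0.0294). EIF4G1 was likewise called by DESeq2 (-0.20, adjusted p 0.0338) and not by edgeR (-0.19, adjusted p 0.125). In bulk RNA, fewer cells with a message and less of it per cell cannot be told apart.

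ISRIB was set against vehicle in the same asparagine-free medium to ask which of these changes it alters. At 6 h 3 of the 36 genes fell and 0 rose, where 2.19% of all genes passed, 0.551% higher and 1.64% lower. PDCD4 had 12.3, 13.7 and 17.9 CPM in asparagine-free ISRIB cells, against the 33.9, 28.9 and 34.6 CPM of asparagine-free vehicle cells, a log2 change of -1.16 (SE 0.15, adjusted p 2.97e-05). EIF4EBP1 had 29.6, 31.6 and 20.03 CPM with ISRIB, against 63.4, 60.8 and 56.6 CPM with vehicle, a log2 change of -1.15 (SE 0.17, adjusted p 0.000204). For both genes all ISRIB libraries were below all vehicle libraries, and both calls were kept in all 6 fits without 1 library. Groups did not overlap here for 10 of the 36 genes and 13.2% of all tested genes, in either direction. The lowest EIF4EBP1 value belongs to replicate 3, a library with a steep negative GC slope, and EIF4EBP1 transcripts are 65.5% GC. With the GC trend removed the log2 change of EIF4EBP1 was -1.08, and without the 3 libraries of most negative slope it was -0.97. The comparisons with ISRIB and with withdrawal share the asparagine-free vehicle libraries, so their values for a gene are not independent.

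The third gene that fell with ISRIB at 6 h was EIF4B, a cofactor that stimulates eIF4A. It had 341, 359 and 329 CPM in asparagine-free ISRIB cells and 409, 412 and 405 CPM in asparagine-free vehicle cells, without overlap. The log2 change was -0.25 (SE 0.07, adjusted p 0.044). This call lies at the threshold. It was lost in 5 of 6 fits without 1 library (all but replicate 2 of the ISRIB cells, highest adjusted p 0.154) and when its copies were added (log2 -0.21, adjusted p 0.0908).

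In medium with asparagine, ISRIB gave no call at either time. With edgeR 0 of the 36 genes passed at 6 h and 0 at 24 h, as did 0% of all genes in either direction at both times, and 0 of the 36 had an unadjusted p below 0.05 at either time. DESeq2 also called 0. PDCD4 had 15.4, 14.3 and 12.8 CPM in asparagine-replete ISRIB cells at 6 h and 12.9, 13.5 and 13.4 CPM in asparagine-replete vehicle cells, which overlap. EIF4EBP1 had 29.4, 36.1 and 40.4 CPM with ISRIB and 37.1, 39.6 and 38.0 CPM with vehicle, which also overlap.

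Whether the withdrawal response itself differed with ISRIB was tested as an interaction. At 6 h 2 of the 36 genes had a negative interaction and 0 a positive one, against 0.718% of all genes in either direction, 0.0574% positive and 0.661% negative. The interaction was -1.25 on the log2 scale for PDCD4 (SE 0.21, adjusted p 0.00244) and -1.04 for EIF4EBP1 (SE 0.24, adjusted p 0.0464). PDCD4 kept its call in all 12 fits without 1 library, and EIF4EBP1 lost it in 10 of 12, keeping it only without replicate 1 of asparagine-replete ISRIB or replicate 2 of asparagine-free ISRIB (highest adjusted p 0.169). Asparagine withdrawal under ISRIB gave no call at 6 h: with edgeR 0 of the 36 genes passed, where 2.3% of all genes did, 1.63% higher and 0.666% lower. Of the 36 genes 4 had an unadjusted p below 0.05, and DESeq2 called 0. PDCD4 changed by 0.04 there and EIF4EBP1 by -0.38, neither passing the test.

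**Figure D2:**
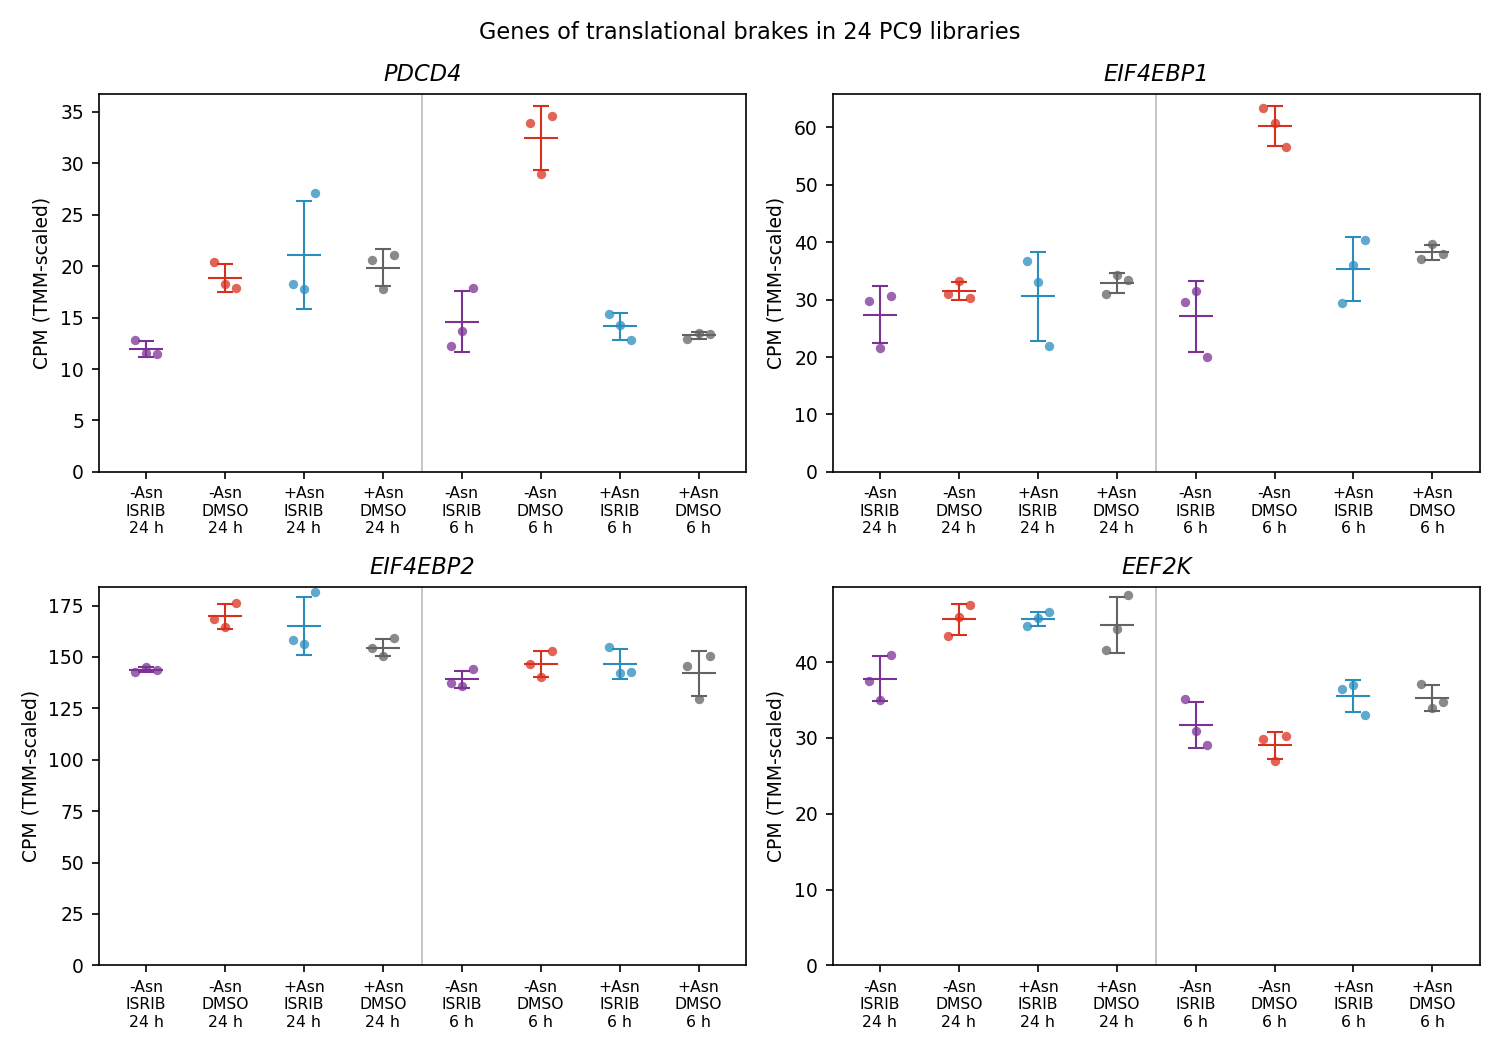
Level of PDCD4, EIF4EBP1, EIF4EBP2 and EEF2K in CPM (TMM-scaled, linear axis) in each of the 24 libraries, with the mean and SD of 3 replicates per group; 24 h groups are left of the line and 6 h groups right of it. PDCD4 and EIF4EBP1 stand highest in asparagine-free vehicle cells at 6 h, with means of 32.5 and 60.3 CPM, and PDCD4 is lowest in asparagine-free ISRIB cells at 24 h.

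The 6 h rise of PDCD4 over asparagine-replete cells was not seen at 24 h. After 24 h of withdrawal with vehicle, edgeR called 0 of the 36 genes and DESeq2 0, although 7 had an unadjusted p below 0.05, and 0.00574% of all genes passed, all of them higher (0.00574%) and 0% lower. PDCD4 had 20.4, 18.3 and 17.9 CPM in asparagine-free vehicle cells at 24 h, against 20.6, 17.8 and 21.1 CPM in asparagine-replete vehicle cells, and the groups overlap. Both groups had moved since 6 h. The asparagine-free mean went from 32.5 to 18.9 CPM, and the replete mean from 13.3 to 19.8 CPM. EIF4EBP1 had 31.0, 33.2 and 30.3 CPM without asparagine and 30.9, 34.3 and 33.5 CPM with it, again overlapping. The difference of the vehicle response between 24 h and 6 h was -1.36 for PDCD4 (SE 0.21, adjusted p 0.000635), the 1 call among the 36 genes and a negative one. In that comparison 1.22% of all genes passed, 0.195% positive and 1.03% negative. For EIF4EBP1 the same difference was -0.72 (SE 0.24) with an adjusted p of 0.226. It passed at -0.64 (adjusted p 0.00235) once the GC trend was removed.

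At 24 h ISRIB in asparagine-free medium came with changes across several roles. Against vehicle 6 of the 36 genes rose and 7 fell, where 21.7% of all genes passed, 10.1% higher and 11.6% lower. The median log2 change of the 36 was -0.04. Groups did not overlap in this comparison for 20 of the 36 genes and 43.0% of all tested genes. Against asparagine-replete ISRIB cells, 5 rose and 7 fell, where 22.1% of all genes passed, 9.97% higher and 12.2% lower. Here 16 of the 36 genes and 34.8% of all tested genes had groups without overlap. Both comparisons share the asparagine-free ISRIB libraries at 24 h. The interaction at 24 h was positive for 3 genes and negative for 4, against 9.06% of all genes, 3.47% positive and 5.59% negative. The ISRIB response in asparagine-free medium was more positive at 24 h than at 6 h for 6 of the 36 genes and more negative for 0, against 7.59% of all genes, 3.35% positive and 4.24% negative.

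**Figure D3:**
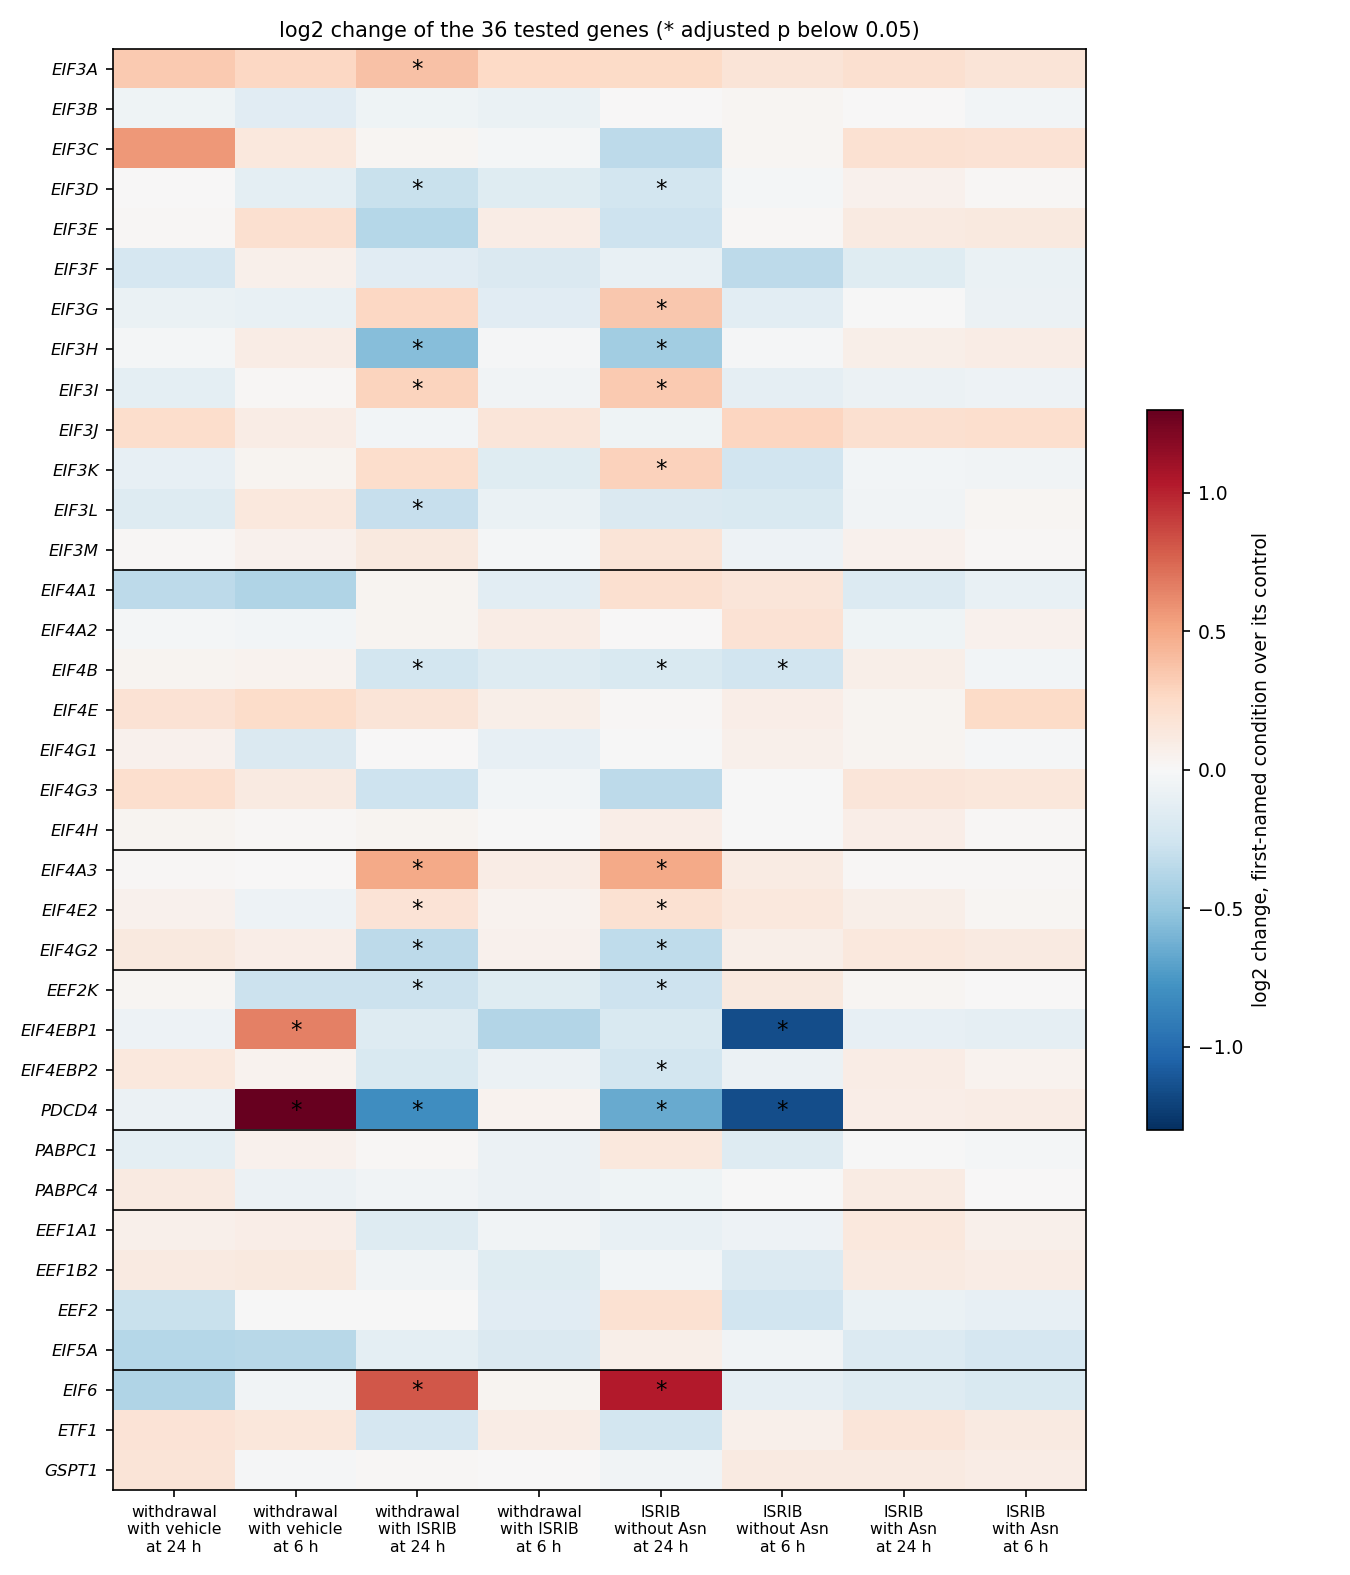
Log2 change of the 36 tested genes (rows, grouped by role and separated by lines) in 8 comparisons of 2 groups (columns), red for higher and blue for lower in the first-named condition; a star marks an adjusted p below 0.05. Stars gather in the columns of asparagine-free ISRIB cells at 24 h (12 and 13 genes), and the columns for ISRIB with asparagine and for withdrawal with vehicle at 24 h have none.

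EIF6 and EIF4A3 had the largest rises of the 36 genes with ISRIB in asparagine-free medium at 24 h. EIF6, at chr20:35278911-35284985 on the minus strand, binds the large ribosomal subunit, takes part in its assembly and keeps it from joining the small one too early. It had 203, 174 and 203 CPM in asparagine-free ISRIB cells, against 83.2, 113 and 87.6 CPM in asparagine-free vehicle cells and 130.2, 123 and 77.6 CPM in asparagine-replete ISRIB cells. The asparagine-free ISRIB libraries were above all others of that time, including the 102, 140.3 and 129 CPM of asparagine-replete vehicle cells. The log2 change was 1.03 (SE 0.18, adjusted p 0.00051) against vehicle, a 2.04-fold rise, and 0.81 (SE 0.18, adjusted p 0.00324) against asparagine-replete ISRIB. The interaction was 1.20 (SE 0.26, adjusted p 0.00676). At 6 h EIF6 had 168, 164 and 109 CPM in asparagine-free ISRIB cells and 163, 167 and 146 CPM in asparagine-free vehicle cells, which overlap, and the ISRIB response was larger at 24 h by 1.14 (SE 0.26, adjusted p 0.0101).

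EIF6 transcripts are 58.0% GC, and the 3 libraries of most negative GC slope held 77.6, 109 and 114 CPM of it, each the lowest of its group. With the GC trend removed, the 24 h change of EIF6 was 0.83 against vehicle and 0.68 against asparagine-replete ISRIB, both past the threshold. Without those 3 libraries the change against asparagine-replete ISRIB was 0.59, also past the threshold. None of the 3 lies in the groups compared with vehicle at 24 h, so omitting them left that change at 1.03 by design. The groups of that comparison differed in GC slope as well. The slope was 0.207, -0.044 and 0.155 in replicates 1, 2 and 3 of asparagine-free ISRIB. In asparagine-free vehicle it was -0.165, 0.003 and -0.168. All 4 calls of EIF6 were kept in every fit without 1 library.

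EIF4A3, at chr17:80135214-80147183 on the minus strand, is a close relative of eIF4A that sits in the exon junction complex and marks spliced messages. It had 278, 274 and 283 CPM in asparagine-free ISRIB cells at 24 h, against 193, 201 and 199 CPM in asparagine-free vehicle cells and 200.2, 199.5 and 194 CPM in asparagine-replete ISRIB cells. The libraries of each group lay close together, and asparagine-free ISRIB stood apart from every other library of the series. The log2 change was 0.50 (SE 0.06, adjusted p 8.65e-06) against vehicle and 0.49 (SE 0.06, adjusted p 6.06e-06) against asparagine-replete ISRIB. The interaction was 0.48 (SE 0.09, adjusted p 0.00148), and the ISRIB response exceeded that at 6 h by 0.39 (SE 0.09, adjusted p 0.008). At 6 h it had 223, 235 and 216 CPM in asparagine-free ISRIB cells and 212, 218 and 196 CPM in asparagine-free vehicle cells, and did not pass. No fit without 1 library ended a call of EIF4A3.

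**Figure D4:**
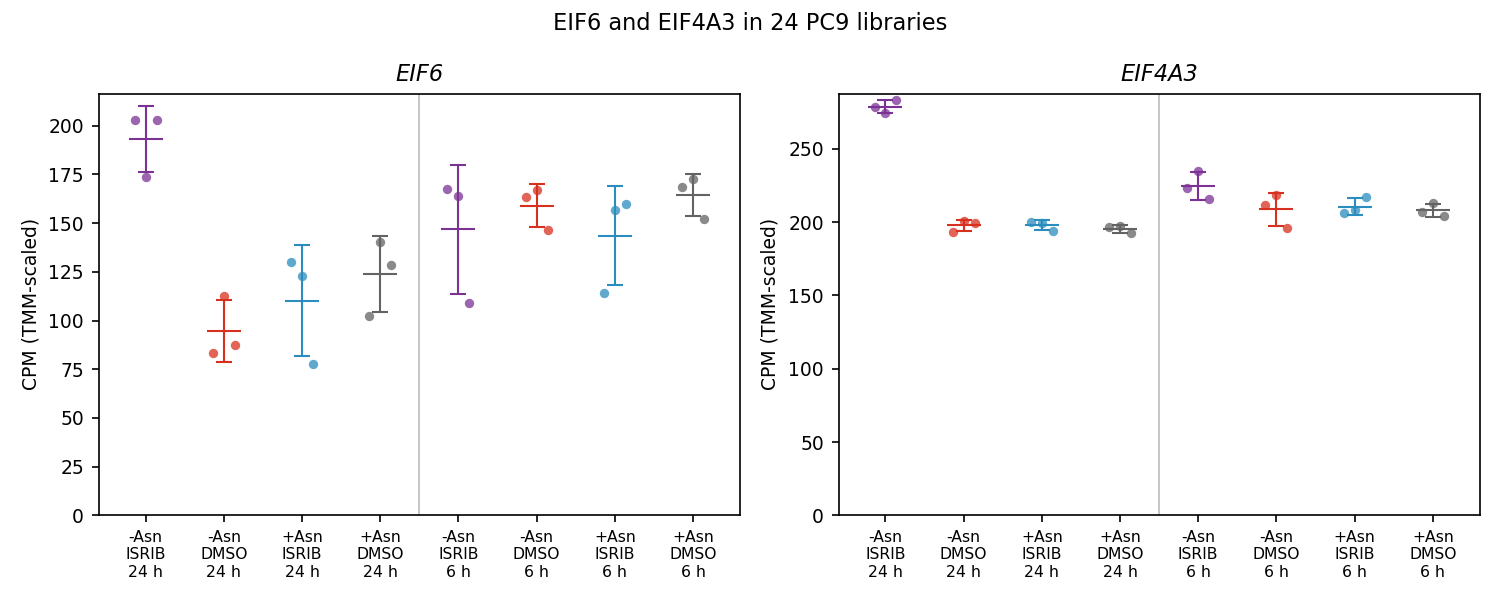
Level of EIF6 and EIF4A3 in CPM (TMM-scaled, linear axis from 0) in each of the 24 libraries with the mean and SD of 3 replicates per group, 24 h left of the line and 6 h right of it. Asparagine-free ISRIB cells at 24 h are at 174 to 203 CPM for EIF6 and 274 to 283 CPM for EIF4A3, above the other groups of that time.

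The other eIF4 relatives outside eIF4F moved in opposite directions at 24 h. EIF4E2, a cap-binding protein that does not recruit eIF4G and is known as a repressor, had 101, 101 and 100.4 CPM in asparagine-free ISRIB cells and 90.1, 85.7 and 87.1 CPM in asparagine-free vehicle cells. The groups do not overlap, and the log2 change was small at 0.20 (SE 0.06, adjusted p 0.027). Against asparagine-replete ISRIB it was 0.18 (SE 0.06, adjusted p 0.0482). That second call was lost in each of the 6 fits without 1 library, and the first in all but the fit without replicate 1 of the vehicle cells (highest adjusted p 0.0868). EIF4G2, a scaffold related to eIF4G that lacks the eIF4E-binding region, averaged 1083 ± 92.7 CPM in asparagine-free ISRIB cells, against 1359 ± 107 CPM in asparagine-free vehicle cells (SD, n = 3 each). Its log2 change was -0.33 (adjusted p 0.0436), and -0.34 (adjusted p 0.0354) against asparagine-replete ISRIB. Removing the GC trend made these -0.13 and -0.19. The first was lost without replicate 1 or 3 of either group (highest adjusted p 0.149) and the second without replicate 1 or 3 of the asparagine-free cells or replicate 3 of the replete cells (log2 -0.22, adjusted p 0.213).

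Of the 4 brakes, PDCD4, EIF4EBP2 and EEF2K fell with ISRIB in asparagine-free medium at 24 h, where 11.6% of all genes passed as lower. PDCD4 had 12.8, 11.5 and 11.5 CPM in asparagine-free ISRIB cells, against 20.4, 18.3 and 17.9 CPM in asparagine-free vehicle cells and 18.3, 17.7 and 27.1 CPM in asparagine-replete ISRIB cells. All asparagine-free ISRIB libraries were the lowest of that time. The log2 change was -0.66 (SE 0.15, adjusted p 0.00398) against vehicle and -0.81 (SE 0.15, adjusted p 0.000556) against asparagine-replete ISRIB, and both calls were kept without any 1 library. The interaction was -0.74 (SE 0.21, adjusted p 0.0317). It was lost in 8 of 12 fits, the exceptions being those without replicate 1 of either replete group, replicate 2 of asparagine-replete ISRIB or replicate 2 of asparagine-free vehicle, and it stood at -0.52 (adjusted p 0.101) without replicate 3 of asparagine-replete ISRIB. With the GC trend removed it was -0.41 (adjusted p 0.0477), and the change against vehicle was -0.43.

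EIF4EBP2, the other 4E-binding protein, had 143, 145 and 144 CPM in asparagine-free ISRIB cells at 24 h and 169, 164 and 176 CPM in asparagine-free vehicle cells. It fell by 0.24 on the log2 scale (SE 0.07, adjusted p 0.0252), with an interaction of -0.33 (SE 0.10, adjusted p 0.0483). Removal of the GC trend left -0.12 (adjusted p 0.0902) and -0.16 (adjusted p 0.14), so neither call held there. The first was also lost without replicate 1 or 3 of either group (highest adjusted p 0.101) and the second in 9 of 12 fits, all but those without replicate 1 or 2 of asparagine-replete ISRIB or replicate 2 of asparagine-free vehicle (highest 0.144). EEF2K, which slows elongation, had 37.5, 35.1 and 40.9 CPM with ISRIB and 43.5, 45.9 and 47.6 CPM with vehicle, without overlap. Its log2 change was -0.27 (SE 0.09, adjusted p 0.0336), and -0.27 (adjusted p 0.0315) against the 44.7, 45.9 and 46.6 CPM of asparagine-replete ISRIB cells. The first call was lost without replicate 1 or 2 of the ISRIB cells or replicate 2 or 3 of the vehicle cells (highest adjusted p 0.118). The second was lost without replicate 1 or 2 of the asparagine-free cells or replicate 2 or 3 of the replete cells (highest 0.111).

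EIF4EBP1 did not pass at 24 h. It had 29.8, 21.6 and 30.7 CPM in asparagine-free ISRIB cells and 31.0, 33.2 and 30.3 CPM in asparagine-free vehicle cells, which overlap, with a log2 change of -0.20 (adjusted p 0.417). With the GC trend removed the change was -0.63 (adjusted p 1.01e-05). None of the 3 libraries of most negative slope lies in these groups, so omitting them left the change at -0.20 by design. The GC slopes of these groups, given with EIF6, differed all the same. The ISRIB response of EIF4EBP1 was less negative at 24 h than at 6 h by 0.95 (SE 0.24, adjusted p 0.0205), or by 0.45 with the GC trend removed. That call was lost in 6 of 12 fits, namely without replicate 1 or 3 of either group at 24 h, replicate 3 with ISRIB at 6 h or replicate 1 with vehicle at 6 h (highest adjusted p 0.0668).

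The 13 eIF3 subunit genes did not move as a block. The subunits form 1 assembly in the cell, in which EIF3A and EIF3C form the core, EIF3B, EIF3G and EIF3I a peripheral module, and EIF3K and EIF3L a peripheral pair. Against vehicle in asparagine-free medium at 24 h, ISRIB came with a rise of 3 of the 13 (EIF3I, EIF3K and EIF3G) and a fall of 2 (EIF3H and EIF3D), and the median log2 change of the 13 was -0.06. Of all tested genes 21.7% passed in this comparison, 10.1% higher and 11.6% lower. EIF3I had 329, 309 and 332 CPM in asparagine-free ISRIB cells, against 238, 271 and 255 CPM in asparagine-free vehicle cells, a log2 change of 0.34 (SE 0.09, adjusted p 0.00987). EIF3K had 130.2, 129 and 139 CPM with ISRIB, against 108, 116 and 100.3 CPM with vehicle (0.30, adjusted p 0.024). EIF3G averaged 199.5 ± 15.7 CPM with ISRIB and 157 ± 19.4 CPM with vehicle (0.35, adjusted p 0.0358). For all 3 the groups do not overlap, as was so for 43.0% of all tested genes in this comparison.

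EIF3H, a subunit with an MPN domain, had 228, 256 and 246 CPM in asparagine-free ISRIB cells, against 321, 316 and 360.3 CPM in asparagine-free vehicle cells. The log2 change was -0.45 (SE 0.12, adjusted p 0.00876), and -0.55 (SE 0.12, adjusted p 0.00163) against the 327, 311 and 433 CPM of asparagine-replete ISRIB cells. EIF3D, the subunit known to bind the cap of some messages, had 349, 347 and 340.2 CPM with ISRIB, against 419.9, 406 and 395 CPM with vehicle, and 425, 424 and 421 CPM in asparagine-replete ISRIB cells. Its log2 change was -0.24 (SE 0.06, adjusted p 0.0121) and -0.29 (SE 0.06, adjusted p 0.0023). Both genes were below every library of the comparison groups.

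Withdrawal under ISRIB at 24 h also gave a fall of EIF3L and a rise of EIF3I and EIF3A. EIF3L had 132, 159.7 and 158 CPM in asparagine-free ISRIB cells, against 184, 177 and 194 CPM in asparagine-replete ISRIB cells (-0.30, SE 0.08, adjusted p 0.00747), and without replicate 1 of the asparagine-free cells its adjusted p was 0.0669 (-0.22). EIF3A, the largest scaffold subunit, had 579, 629.8 and 559 CPM, against 394, 421 and 543 CPM (0.38, SE 0.12, adjusted p 0.0311). EIF3I changed by 0.29 there (adjusted p 0.0243). The EIF3A libraries do not overlap in this comparison, although replicate 3 of the replete cells lies close to the asparagine-free ones. Withdrawal with vehicle gave EIF3A 543, 451 and 496 CPM in asparagine-free cells, against 414, 367 and 392 CPM in asparagine-replete cells at 24 h, a change of 0.34 that did not pass (adjusted p 0.671).

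The interaction at 24 h was 0.42 for EIF3I (adjusted p 0.0421), -0.30 for EIF3D (adjusted p 0.0435) and -0.53 for EIF3H (adjusted p 0.0451). The ISRIB response was larger at 24 h than at 6 h by 0.55 for EIF3K (SE 0.13, adjusted p 0.0132) and 0.47 for EIF3I (SE 0.13, adjusted p 0.0299). At 6 h EIF3K had 108, 114 and 92.7 CPM in asparagine-free ISRIB cells, against 120.3, 129.9 and 123 CPM in asparagine-free vehicle cells, and EIF3I 285, 293 and 227 CPM against 294, 301 and 281 CPM. The ISRIB value was thus the lower one for EIF3K at 6 h and the higher one at 24 h.

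The eIF3 calls differed in how far they hold. EIF3H and EIF3D under withdrawal with ISRIB and EIF3K between times kept their calls without any 1 library. Against vehicle at 24 h, EIF3I (adjusted p 0.0586) and EIF3D (0.0553) were lost without replicate 1 of the vehicle cells, and EIF3H without replicate 3 of the vehicle cells (0.0511) or replicate 1 of the ISRIB cells. EIF3K and EIF3G were lost without replicate 1 or 3 of either group, with highest adjusted p of 0.117 and 0.189. EIF3A was lost without replicate 1 or 2 of either group (0.124) and EIF3I under withdrawal without replicate 1 or 3 of the asparagine-free cells or replicate 3 of the replete cells (0.13). Of 12 fits without 1 library, the interaction of EIF3D was lost in 11 (0.107), all but that without replicate 1 of asparagine-replete vehicle. That of EIF3H was lost in 8 (0.149), all but those without replicate 1 or 2 of asparagine-replete ISRIB or replicate 2 of either asparagine-free group. EIF3I also kept it without replicate 1 of asparagine-replete vehicle and lost it in 7 (0.122). The difference between times of EIF3I was lost in 7 (0.0869), all but those without replicate 1 or 2 with ISRIB at 6 h, replicate 3 with vehicle at 6 h, or replicate 2 of either group at 24 h.

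Some of these eIF3 values changed when the GC trend was removed. Across all 17326 genes with a known GC content, the log2 change with ISRIB in asparagine-free medium at 24 h correlated with it at r = 0.40, and across the 36 genes at 0.39; both are descriptions across genes that share libraries. With the GC trend removed EIF3G stood at 0.08 (adjusted p 0.499) and EIF3H at -0.25, while EIF3I, EIF3K and EIF3D kept their calls and EIF3A (0.38) and EIF3M (0.39) joined the genes that rose. EIF3B, EIF3C, EIF3E, EIF3F and EIF3J did not pass in this comparison with or without the correction.

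**Figure D5:**
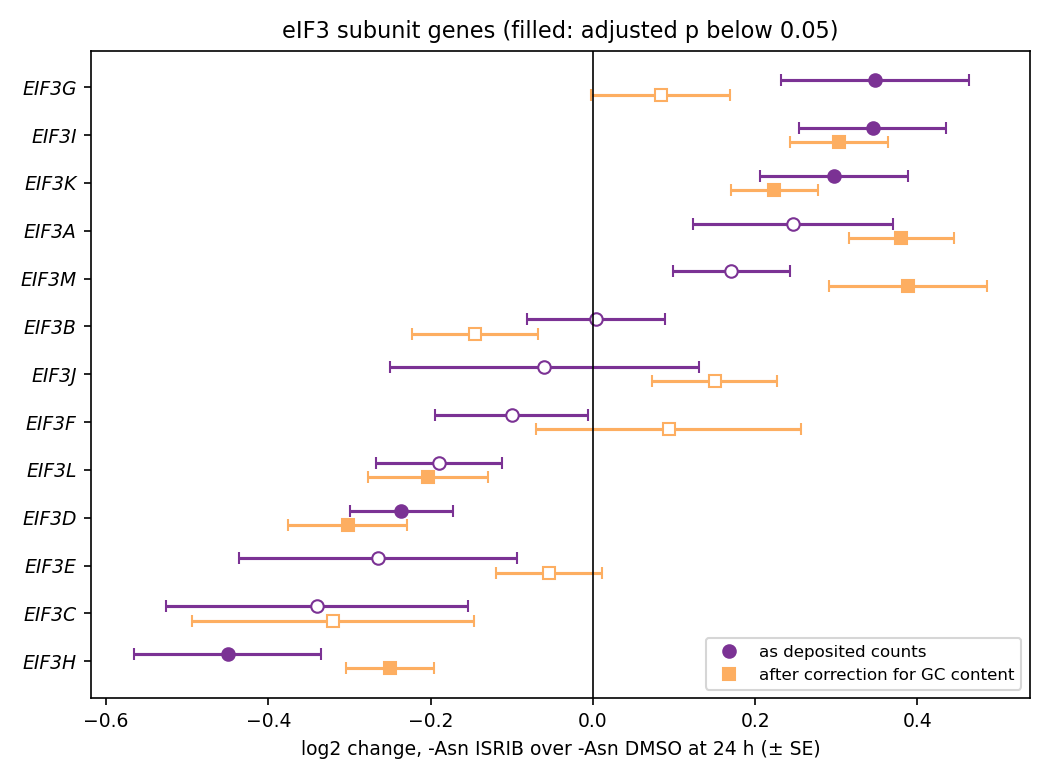
Log2 change with ISRIB against vehicle in asparagine-free medium at 24 h for the 13 eIF3 subunit genes, with SE, from the deposited counts (purple circles) and after removal of the GC trend of each library (orange squares); filled symbols have an adjusted p below 0.05. EIF3G moves to 0.08 and EIF3H to -0.25 after the correction, and EIF3I, EIF3K and EIF3D stay on their side.

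Of the 7 genes of eIF4F and its cofactors, EIF4B was the 1 that passed in a comparison of asparagine or ISRIB at 24 h, with 343, 332 and 329 CPM in asparagine-free ISRIB cells, against 357, 381 and 414 CPM in asparagine-free vehicle cells (-0.20, SE 0.07, adjusted p 0.0338) and 394, 384 and 411 CPM in asparagine-replete ISRIB cells (-0.24, SE 0.07, adjusted p 0.0105). The call against vehicle was lost in all but the fit without replicate 1 of the vehicle cells (highest adjusted p 0.184), and the other was kept. EIF4E had 17.4, 22.9 and 16.2 CPM in asparagine-free ISRIB cells at 24 h and 19.8, 17.2 and 18.9 CPM in asparagine-free vehicle cells, which overlap, and its lowest adjusted p over the 13 comparisons was 0.468. EIF4A2, the second cytoplasmic eIF4A, had 254, 280.4 and 257 CPM and 277, 253 and 259.6 CPM in these groups, and its lowest adjusted p over all comparisons was 0.0899. EIF4G1, the main scaffold, had 1098, 981 and 1032 CPM with ISRIB and 1067, 1051 and 1014 CPM with vehicle, overlapping as well.

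EIF4A1 had 4.03, 3.80 and 4.29 CPM in asparagine-free ISRIB cells at 24 h and 3.58, 3.92 and 3.00 CPM in asparagine-free vehicle cells, an overlap, and never passed. These values describe the few reads kept on the gene. With the counts of its copies added, the log2 change was 0.25 (adjusted p 0.0251) against vehicle and 0.26 (adjusted p 0.0194) against asparagine-replete ISRIB. With its copies EEF1D likewise had 0.31 (adjusted p 0.0457) against vehicle. EIF4G3, the remaining scaffold, had 73.2, 72.4 and 69.8 CPM in asparagine-free ISRIB cells at 24 h, against 102, 83.5 and 87.3 CPM in asparagine-free vehicle cells, without overlap. Its log2 change of -0.34 (SE 0.13) did not pass (adjusted p 0.0644), nor did its interaction of -0.50 (SE 0.18, adjusted p 0.0873).

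The elongation factors gave no call in any of the 13 comparisons. Of the 4 tested, the number with an unadjusted p below 0.05 was 1 for withdrawal with vehicle at 24 h, 1 for the ISRIB response between times and 2 for time. EEF1A1, which delivers transfer RNAs, had 912, 944 and 817 CPM in asparagine-free ISRIB cells at 24 h and 865, 939 and 1057 CPM in asparagine-free vehicle cells, and its log2 changes over the 13 comparisons ran from -0.24 to 0.14. EEF2, which moves the ribosome along and is the substrate of EEF2K, had 1794, 1553 and 1755 CPM with ISRIB and 1427, 1601 and 1407 CPM with vehicle. Both pairs overlap. Over the 13 comparisons EEF2 ran from -0.31 to 0.45 with a lowest adjusted p of 0.0926. EIF5A, which resolves stalls at proline runs, ran from -0.43 to 0.25 (lowest adjusted p 0.141), and EEF1B2 had a lowest adjusted p of 0.576.

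Of the poly(A)-binding proteins, which circularise messages through eIF4G, PABPC1 had 2214, 2225 and 2387 CPM in asparagine-free ISRIB cells at 24 h and 2014, 2075 and 2097 CPM in asparagine-free vehicle cells. At 6 h it had 2183, 2158 and 2000.0 CPM with ISRIB and 2389.9, 2363 and 2368 CPM with vehicle. The ISRIB libraries were all above the vehicle ones at 24 h and all below them at 6 h, although neither comparison passed on its own. The ISRIB response differed between the times by 0.31 (SE 0.08, adjusted p 0.0274), a call lost in 6 of 12 fits. These left out replicate 3 with ISRIB at either time, replicate 1 or 3 with vehicle at 24 h, or replicate 1 or 2 with vehicle at 6 h (highest adjusted p 0.0911). The release factors did not pass in these comparisons. GSPT1, the GTPase that assists release, had a lowest adjusted p of 0.103 over all 13.

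The design also holds a comparison of time alone. In asparagine-replete vehicle cells at 24 h against 6 h, 2 of the 36 genes were higher and 6 lower, where 18.8% of all genes passed, 9.34% higher and 9.47% lower. Of the 36, 27 had a negative log2 change, with a median of -0.15. PDCD4 rose, with 20.6, 17.8 and 21.1 CPM at 24 h, against 12.9, 13.5 and 13.4 CPM at 6 h (0.58, SE 0.15, adjusted p 0.00928). EEF2K rose too, with 41.6, 44.4 and 48.8 CPM at 24 h, against 37.1, 33.9 and 34.7 CPM at 6 h (0.35, SE 0.09, adjusted p 0.00897). Neither pair of groups overlaps, which held for 23 of the 36 genes and 41.4% of all tested genes in this comparison. The EEF2K call was lost without replicate 3 at 24 h (adjusted p 0.0625).

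EIF3B, which forms a module with EIF3G and EIF3I, fell with the smallest adjusted p of the 6, with 455, 515 and 472 CPM at 24 h, against 570.4, 657 and 631 CPM at 6 h (-0.37, SE 0.08, adjusted p 0.00419). The groups are well apart, and the call was kept in all 6 fits without 1 library. EIF4H, a cofactor of eIF4A like EIF4B, had 268, 277 and 262 CPM at 24 h and 299.98, 316 and 318 CPM at 6 h (-0.21, adjusted p 0.0167). EIF3D had 419.8, 407 and 391 CPM at 24 h and 446, 497 and 455 CPM at 6 h (-0.20, adjusted p 0.0326). EIF4G1 had 921, 1037 and 1053 CPM at 24 h and 1119.8, 1160.4 and 1179 CPM at 6 h (-0.20, adjusted p 0.0412). All 3 were lower in every 24 h library. PABPC4 averaged 438 ± 10.1 CPM at 24 h and 503 ± 22.9 CPM at 6 h (-0.20, adjusted p 0.0304), and ETF1, which reads the stop codon, 276 ± 20.7 CPM and 357 ± 22.2 CPM (-0.37, adjusted p 0.043).

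These time calls rest on few libraries. ETF1 was lost in each of the 6 fits without 1 library (highest adjusted p 0.16), EIF4G1 in all but that without replicate 3 at 24 h (0.209 without replicate 1 at 24 h), and PABPC4 (0.121) and EIF3D (0.175) without replicate 2 or 3 of either time. EIF4H was lost without replicate 1 or 3 at 24 h or replicate 2 or 3 at 6 h (0.0725). With the GC trend removed EIF4G1 (-0.13, adjusted p 0.271), EIF4H (-0.17, adjusted p 0.094) and EIF3D (-0.16, adjusted p 0.106) did not pass.

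The members with a pyrimidine start were set beside the others as a description. With ISRIB in asparagine-free medium at 6 h, the median log2 change was -0.18 over the 9 tested genes with such a start, 8 of them negative, and 0.06 over the 19 others with a promoter entry, 7 of them negative. For withdrawal under ISRIB at 6 h it was -0.16 with 8 of 9 negative, against -0.01 with 10 of 19 negative. Both comparisons use the asparagine-free ISRIB libraries at 6 h, of which replicate 3 had a GC slope of -0.36. Withdrawal with vehicle at 6 h gave 0.05 with 3 of 9 negative, against 0.01 with 8 of 19 negative. The ISRIB response between times gave medians of 0.14 and -0.07. At 24 h with ISRIB in asparagine-free medium the medians were -0.04 and -0.01. EIF4B was the 1 gene of the 9 that passed in the first of these comparisons. These genes share libraries, and the difference between the classes was not tested.

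Genes of the same pathway outside the 36 were read against the share of all genes called. With ISRIB against vehicle in asparagine-free medium at 24 h, 22.2% of 18 other initiation factors, 18.8% of 16 cap and poly(A) regulators and 31.2% of 16 other elongation and termination genes passed, against 21.7% of all genes, so these counts are near the background. Among 18 other initiation factors tested, 1 rose and 1 fell after 6 h of withdrawal with vehicle: EIF1, which guards start codon choice, by 0.42 (adjusted p 0.00449), and EIF5, the GTPase activator of eIF2, by -1.18 (adjusted p 5.78e-05). With ISRIB against vehicle in asparagine-free medium, 0 of the 18 passed at 6 h, and at 24 h 2 rose and 2 fell, with EIF5 at -2.07 (adjusted p 4.54e-08), the eIF2B subunit gene EIF2B4 at 0.55 (adjusted p 0.00118) and EIF2A at -0.68 (adjusted p 0.00286). Of 16 cap and poly(A) regulators, 0 rose and 1 fell at 6 h, the eIF4E kinase gene MKNK2 (-0.74, adjusted p 0.0193). At 24 h 0 rose and 3 fell. These were PAIP2, an inhibitor of PABPC1 (-0.37, adjusted p 0.0016), RPS6KB1, the S6 kinase that marks PDCD4 for degradation (-0.66, adjusted p 0.00174), and EIF4E3 (-0.77, adjusted p 0.0173). Of 16 other elongation and termination genes 0 passed at 6 h, and at 24 h 4 rose and 1 fell. EIF5A2, the second eIF5A gene, was at -1.14 (adjusted p 0.000329), DPH1, which starts the diphthamide modification of eEF2, at 0.88 (adjusted p 0.00952), and PELO, which rescues stalled ribosomes, at 0.30 (adjusted p 0.0148).

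Of the 36 tested genes, 22 passed in at least 1 of the 13 comparisons, with 54 calls in all. PDCD4 had 8 of the calls and EIF6, EIF4A3, EIF4EBP1, EIF3I and EIF3D 4 each. The share of all tested genes that passed in at least 1 comparison is not given here, so 22 of 36 has no background beside it. The 13 comparisons reuse the same 8 groups, so the calls of a gene are not independent. Of the 54 calls 21 were kept in every fit without 1 library, 33 were lost in at least 1 and 3 in every one. The 14 genes that never passed were EIF3C, EIF3E, EIF3F, EIF3J, EIF3M, EIF4A1, EIF4A2, EIF4E, EIF4G3, EEF1A1, EEF1B2, EEF2, EIF5A and GSPT1.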

How the data were processed

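RNA sequencing libraries of PC9 cells formed 8 groups of 3 biological replicates. Per the submitters' processing notes, the authors used Bowtie2, featureCounts, DESeq2 and hg38, with versions and strandedness not given in the sources used here. In the table as deposited, counts are reads per gene for 37411 genes in 24 libraries.

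TMM scaling (factors 0.902 to 1.08) and filterByExpr of edgeR 4.0.16 in R 4.3.3 left 17409 genes, with 0.0751% to 0.0980% of each library's counts dropped. A fit with 1 mean per group to all 24 libraries (16 residual degrees of freedom, common dispersion 0.0176) gave 13 contrasts. P-values are from the quasi-likelihood F test, adjusted over all tested genes by Benjamini-Hochberg at 0.05, and checked on simulated counts. SE is the size of the log2 change over the root of F. CPM are TMM-scaled except for the cell type markers, which use total counts alone. Levels per kb use the exon length of GENCODE release 29 (GRCh38), which matched 36620 of the identifiers without version.

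Named were 12 followed genes (EIF4EBP1, EIF4EBP2, PDCD4, EEF2K, EIF4A1, EIF4A2, EIF4E, EIF4G1, EEF1A1, EEF2, EIF3A, PABPC1), all members past the threshold where they were 12 or fewer and otherwise the 6 of smallest adjusted p each way, and up to 3 genes per pathway list and comparison. EIF4G2 against vehicle at 24 h and genes that passed only in another setting were named after their values were seen. The members, lists and tests were chosen with earlier results of these data known. Promoter starts come from RefSeq, and sequences by coordinate from a genome were not used here.

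Alternatives were RLE scaling, no filter, DESeq2 1.42.0, fitting only the libraries of the groups compared, a block for the replicate number, that block with a GC correction, and each library left out. Added after seeing the data were the GC correction without the block (a robust spline with 5 degrees of freedom on GC content per library, with MASS, known for 17326 genes), the counts of named copies summed, and omission of the 3 libraries with the steepest negative GC trend. As a check of pairing, deviations from the group mean were correlated between same-numbered libraries. Every pair exceeded 0.1 in 3 comparisons: withdrawal with vehicle at 6 h (0.284 to 0.311), the same at 24 h (0.185 to 0.330), and ISRIB without asparagine at 6 h (0.306 to 0.440). In the other 6 comparisons between a pair of groups at least 1 did not. What the numbers mark is not stated in the labels.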

Additional observations from a re-analysis of the deposited data

Results flagged for a closer look

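The effect of withdrawal or of ISRIB differed between conditions for several of these genes by a test of the difference itself (edgeR, adjusted p below 0.05). With ISRIB against vehicle, the withdrawal response at 6 h was lower for PDCD4 by an interaction of -1.25 (log2) and for EIF4EBP1 by -1.04. At 24 h the interaction was 0.48 for EIF4A3, 1.20 for EIF6, 0.42 for EIF3I, -0.74 for PDCD4, -0.30 for EIF3D, -0.53 for EIF3H and -0.33 for EIF4EBP2. PDCD4 at 6 h and EIF4A3 and EIF6 at 24 h kept these calls in all 12 fits without 1 library. The call was lost in 10 of 12 for EIF4EBP1 at 6 h. At 24 h it was lost in 7 for EIF3I, 8 for PDCD4 and EIF3H, 9 for EIF4EBP2 and 11 for EIF3D.

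Between times, the withdrawal response with vehicle was lower at 24 h than at 6 h for PDCD4, by -1.36. The ISRIB response in asparagine-free medium was higher at 24 h than at 6 h for EIF6 by 1.14, EIF4EBP1 by 0.95, EIF3K by 0.55, EIF3I by 0.47, EIF4A3 by 0.39 and PABPC1 by 0.31. Of these calls between times, EIF4EBP1 and PABPC1 were lost in 6 of 12 fits without 1 library and EIF3I in 7. The others were kept.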

How the results depend on the processing

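None of the 54 calls turned its direction in the 9 alternatives other than leaving out a library, which together gave 419 values on the same side of the threshold and 67 that no longer passed, 25 of them in the fit to the groups compared alone and 24 without a filter on low counts. Counts of the 36 genes called (rose and fell) moved by over 1.5 times as follows, and the cause was not tested. For withdrawal with vehicle at 6 h, DESeq2 gave 4 (2 and 2), and omitting the 3 libraries with the steepest negative GC trend gave 5 (3 and 2). For withdrawal with ISRIB at 6 h, the GC correction gave 2 (1 and 1) with and without the block. For withdrawal with ISRIB at 24 h, no filter gave 7, the groups alone 4, the GC correction 19 and with the block 21. For ISRIB without asparagine at 6 h, DESeq2 gave 5 (0 and 5), the GC correction 5 (1 and 4) and with the block 6, and at 24 h no filter gave 7 and leaving out the 3 libraries 20. For the interaction the groups alone gave 1 at 6 h, and at 24 h no filter gave 4, the groups alone 2 and the GC correction with the block 14. For the vehicle response between times, no filter, the groups alone, the GC correction and leaving out the 3 libraries each gave 2, and the GC correction with the block 4. For the ISRIB response between times, the groups alone gave 3, the GC correction 10 and with the block 12. For time, the GC correction gave 14 (2 and 12), with the block 15, and leaving out the 3 libraries 17 (3 and 14). Those 3 libraries lie outside the groups of withdrawal with vehicle at 6 h and of ISRIB without asparagine at 24 h. They also lie outside those of the vehicle response between times and of time. There, omitting them can act only through the scaling, the filter and the estimate of spread, which all libraries share.

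With the replicate number as a block the counts were 2, 3, 13 and 14 for withdrawal with vehicle at 6 h, ISRIB without asparagine at 6 h, withdrawal with ISRIB at 24 h and ISRIB without asparagine at 24 h. They were 2 and 9 for the interaction at 6 and 24 h, 1 and 7 for the responses between times, 9 for time and 0 elsewhere. Pairing ended no call. Leaving out 1 library gave 1 to 1 calls for withdrawal with vehicle at 6 h, 6 to 10 for withdrawal with ISRIB at 24 h, 2 to 3 and 5 to 11 for ISRIB without asparagine at 6 and 24 h, 1 to 2 and 2 to 7 for the interaction, 1 to 1 and 3 to 7 for the responses between times, 3 to 6 for time and 0 to 0 elsewhere. Fits without 1 library leave a group with 2 libraries. PDCD4, EIF3C, EIF4E and EIF4A1 were below 20 CPM on average. EIF4A1 had 56 to 152 counts per library and PDCD4 206 to 677, and whether depth limited their calls was not tested.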
